A study of Danio rerio with 6 samples.

Results

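Among zebrafish genes with enough reads to be compared, 116 had a higher level in every *dlx3b/4b* morphant sample than in any wild-type sample by a clear gap. A gene was taken as a member if its mean raw count over the 6 samples was 100 or more and its lowest morphant level was at least 1.4 times its highest wild-type level. Levels were CPM, the read count of a gene per 1000000 gene counts of the sample. The 116 members were 1.04% of the 11139 genes that met the count limit, out of 32266 genes listed. Genes of the mitochondrial genome were left out, as were genes of chromosome 4 that start at 30 Mb or later, of which 243 met the count limit and 4 also the ratio. The members were thus chosen by their levels in these same 6 samples, so their difference between the groups is described below without a test.

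The RNA came from *pax8*:DsRed-positive cells, isolated from dissociated embryos by fluorescence-activated cell sorting at late stages of the otic-epibranchial progenitor domain (OEPD). The 3 *dlx3b/4b* morphant samples were from embryos injected at the 1-cell stage with antisense morpholino oligomers, which block the use of a transcript, against *dlx3b* and *dlx4b*. The 3 wild-type samples were from embryos for which no injection is described. All embryos carried the *pax8*:DsRed transgene in heterozygosity, and the wild-type line was AB. Loss of Dlx3b/4b function therefore cannot be told apart from the injection itself in these samples. The transgene labels the OEPD, the common precursor field of the inner ear and the epibranchial ganglia, and also the nephric anlagen, so each sample pooled cells of several fates. In such bulk RNA, fewer cells of a type and less RNA per cell cannot be told apart.

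Dlx3b and Dlx4b are homeodomain transcription factors that act at the border of the neural plate, where they give cells the competence to become otic tissue. Some of the members belong to pathways that work around this field or in stressed cells. Retinoic acid is a vitamin A derivative made in the mesoderm of the trunk, Wnt and Bmp proteins are secreted signals that pattern the body axis, and genes of growth arrest and cell death are switched on in damaged cells.

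Gene counts summed to between 23846555 and 26250129 in the morphant samples, against 27373965 to 28480101 in the wild-type samples, and a level of 3 counts was 0.105 to 0.126 CPM. Mitochondrial transcripts took 2.02% to 2.21% of counts in morphant samples and 2.10% to 4.63% in wild-type samples. *PAX8* was present at 405.1, 271.6 and 319.9 CPM in morphant replicates 1, 2 and 3, against 249.8, 296.8 and 232.7 CPM in wild-type replicates 1, 2 and 3, so the gene that drives the reporter was found in every sample. The 15 genes of the OEPD and nephric marker list summed to 2372 to 2736 CPM in morphant samples and to 2925 to 3365 CPM in wild-type samples. Transcripts of the knockdown targets did not separate the groups. *DLX3*, the name given here to the *dlx3b* gene, had 1312, 2090 and 4257 counts in morphant samples, against 1347, 3855 and 881 counts in wild-type samples. *dlx4b* had 4.15, 8.68 and 23.8 CPM in morphant samples, against 6.18, 24.7 and 3.93 CPM in wild-type samples. A morpholino acts on the use of the transcript, so these RNA levels do not check the depletion.

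The members were mostly genes of low to middle level. Their mean raw count had a median of 401.4 and ran between 100.7 and 33066, against a median of 716.7 over all 11139 genes. Of the 116 members, 67 (57.8%) had a mean count under 500, beside 39.5% of all genes, and 5 had 10000 or more. Their annotated exons added up to a median of 3182 bp (quartiles 2090 and 4421 bp), against 2580 bp (1744 and 4010 bp) over all genes. The ratio of mean levels, morphant over wild type, had a median of 1.99 and a range of 1.54 to 5.43, which is 0.99 on the log2 scale against 0.00 for all genes, and 57 members had a ratio of 2 or more. Every morphant sample lay above every wild-type sample for 1849 genes, which is 16.6% of the 11139, and below every wild-type sample for 2065 (18.5%). The members are the part of the 1849 with the widest gaps. The same gap in the other direction was met by 281 genes, 2.52% of the 11139.

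**Figure D1:**
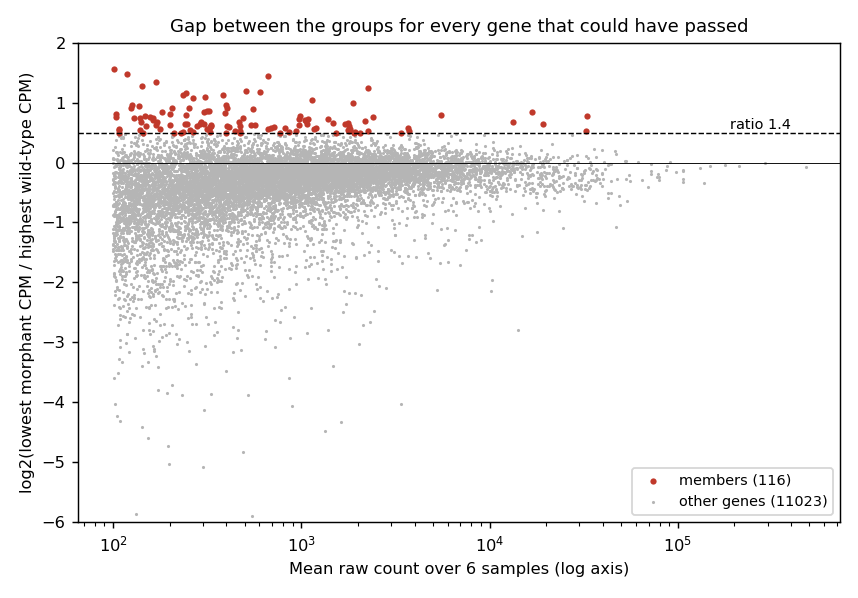
The gap between the groups for each of the 11139 genes with a mean raw count of 100 or more, as log2 of the lowest morphant CPM over the highest wild-type CPM (vertical axis), against the mean raw count on a log axis. The 116 members (red) lie at or above the dashed line at a ratio of 1.4, other genes are grey, points above 0 have no overlap between the groups, and 3 genes lie below the plotted range.

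Together the members took 1.00%, 0.991% and 1.01% of counts in morphant replicates 1, 2 and 3, against 0.540%, 0.469% and 0.550% in wild-type replicates 1, 2 and 3. The 10 members of highest level held 66.9% of the summed CPM. Without these, the other members summed to 3390, 3406 and 3399 CPM in morphant samples, against 1691, 1470 and 1748 CPM in wild-type samples. Wild-type replicate 2 was the lowest wild-type sample for 67 members (57.8%), beside 50.9% of all genes.

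The widest gaps belonged to genes of varied function. *ank2a*, an ankyrin that anchors membrane proteins to the cytoskeleton (ENSDARG00000009026, chr1:13386954-13473738), had 6.02, 6.25 and 6.37 CPM in morphant samples and 2.04, 1.21 and 1.47 CPM in wild-type samples. Its lowest morphant level was 2.96 times its highest wild-type level, the largest such ratio, although its level was low, at 0.234 RPKM, the CPM per kilobase of exon. *erbb3b*, a receptor for neuregulin signals known for its role in glia and neural crest (ENSDARG00000036993, chr23:25305870-25361125), had 10.2, 6.41 and 5.95 CPM in morphant samples and 2.14, 1.13 and 1.65 CPM in wild-type samples. The coordinates are those of the deposited table, for which the submitters' processing notes name the GRCz10 assembly and the study's methods GRCz11, and which of these holds was not settled here. *si:dkey-204l11.1*, a gene named only by its clone, had the largest ratio of means of all members, 5.43, with 26.6, 46.9 and 58.6 CPM in morphant samples and 6.54, 8.04 and 9.76 CPM in wild-type samples.

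In these genes all morphant samples stood well clear of the wild type, but their spread differed, being narrow in *ank2a* and wide in *si:dkey-204l11.1*. *pde11al*, a cyclic nucleotide phosphodiesterase, had 277, 262 and 263 counts in morphant samples and 2, 98 and 113 counts in wild-type samples. Wild-type replicate 1 was thus at 0.0714 CPM, below the 0.107 CPM of 3 counts in that sample, while the other wild-type samples had 3.58 and 3.97 CPM, so this gene's ratio of means, 4.16, rests in part on 1 library. *PPP6R2*, a regulatory subunit of protein phosphatase 6, averaged 8.30 ± 1.17 CPM in morphant samples and 2.67 ± 0.292 CPM in wild-type samples (SD, n = 3 each). *SYDE1*, a protein that activates GTP hydrolysis by small GTPases, averaged 29.9 ± 3.99 CPM in morphant samples and 9.08 ± 2.54 CPM in wild-type samples.

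Secreted and structural proteins were also among the 15 widest gaps. *ADAMTS18*, a metalloprotease of the extracellular matrix, had 33.8, 33.4 and 31.8 CPM in morphant samples and 14.1, 14.0 and 11.9 CPM in wild-type samples. *serpina10b*, which belongs to the serine protease inhibitors, averaged 17.8 ± 1.95 CPM in morphant samples and 5.81 ± 1.46 CPM in wild-type samples (SD, n = 3 each). *PHLDB2*, a protein that holds microtubules at the cell cortex, averaged 64.7 ± 11.9 CPM in morphant samples and 22.9 ± 6.17 CPM in wild-type samples. The other genes of the 15 are a poly(ADP-ribose) polymerase that acts in DNA break repair, *PARP3*, and the pocket protein *RBL2*, which represses cell cycle genes with E2F factors, besides 4 genes treated below. *PARP3* averaged 13.9 ± 2.63 CPM in morphant samples and 4.87 ± 0.465 CPM in wild-type samples. *RBL2* averaged 15.9 ± 5.21 CPM in morphant samples and 4.71 ± 0.343 CPM in wild-type samples. For all of these the morphant and wild-type ranges did not overlap, as the rule requires.

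**Figure D2:**
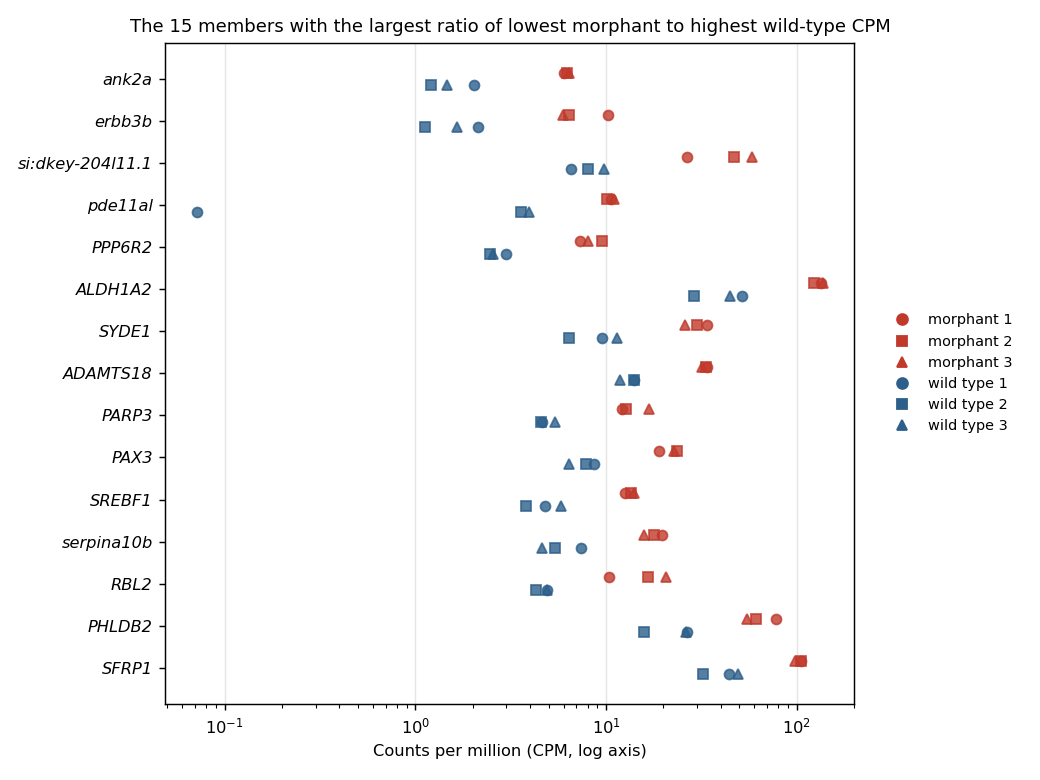
CPM on a log axis in each sample for the 15 members with the largest ratio of lowest morphant to highest wild-type level, in order of that ratio from *ank2a* (2.96) at the top to *SFRP1* (1.99) at the bottom. Red symbols are the 3 morphant samples and blue symbols the 3 wild-type samples, with 1 shape per replicate number, and the single low point is *pde11al* in wild-type replicate 1 at 0.0714 CPM.

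Of 27 gene lists drawn up for pathways and cell types, 11 held at least 1 member, and 17 of the 116 members stood on any of them. These 17 were 2.93% of the 580 list genes that met the count limit, beside 1.04% of all 11139 genes. The Bmp and Tgf-beta list held 4 of 33 and the retinoic acid list 3 of 25. The other 16 lists, with 4 to 45 genes above the count limit, held no member, and at a share of 1.04% over all genes nothing is read from that. The otic and preplacodal list, with 29 such genes, was 1 of these.

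Another 7 members act in growth arrest, in cell death or in stress signalling. *CCNG1*, cyclin G1, was the most abundant per kilobase of all 116 members, at a mean of 269.3 RPKM over the 6 samples. It had 716.7, 936.2 and 1172 CPM in morphant samples, against 327.3, 360.1 and 399.8 CPM in wild-type samples. *cdkn1a*, which encodes the cell cycle inhibitor p21, had 6.02, 9.76 and 11.0 CPM in morphant samples, against 3.57, 2.96 and 3.34 CPM in wild-type samples. *mdm2*, which encodes a ubiquitin ligase (ENSDARG00000033443, chr4:23404714-23415116), had 67.8, 102.9 and 130.3 CPM in morphant samples, against 34.5, 36.5 and 44.3 CPM in wild-type samples. In each of these genes morphant replicate 1 was the lowest morphant sample and replicate 3 the highest.

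The other 4 of these members had the same order of morphant samples. *sesn3*, a sestrin that restrains growth signalling through TOR, had 41.9, 62.2 and 78.1 CPM in morphant samples, against 18.7, 19.8 and 25.8 CPM in wild-type samples. *foxo3b*, a forkhead factor of stress responses, had 14.2, 25.7 and 34.6 CPM in morphant samples, against 5.46, 6.43 and 7.30 CPM in wild-type samples. *PHLDA3*, an inhibitor of Akt, had 10.7, 17.3 and 30.2 CPM in morphant samples, against 5.79, 5.88 and 5.79 CPM in wild-type samples. *casp8*, the initiator caspase of death receptors, had 13.9, 21.7 and 34.3 CPM in morphant samples, against 7.50, 7.60 and 9.16 CPM in wild-type samples. The wild-type samples lay close together in all of these, the highest being 1.02 to 1.38 times the lowest.

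These 7 members had a wide spread among the morphant samples. The ratio of morphant replicate 3 to morphant replicate 1 reached 0.5 on the log2 scale in 16 members (13.8%), beside 8.20% of all 11139 genes. All 7 were among these 16, at 0.71 in *CCNG1* to 1.5 in *PHLDA3*, while 9 of the other 109 members (8.26%) were. Their summed level was 871.2, 1176 and 1491 CPM in morphant replicates 1, 2 and 3, against 402.8, 439.3 and 495.5 CPM in the wild-type samples.

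The 9 further members with this spread included ubiquitin ligases. They were *LNX1*, *RNF14*, *si:dkey-204l11.1*, *RBL2*, *lrrc75bb*, *lyrm1*, *RAB11FIP4*, *arhgap28* and *rnf169*. *LNX1*, a ligase that degrades the Notch regulator Numb, had the widest spread of all members, with 7.47, 16.4 and 25.4 CPM in morphant samples and 2.71, 3.98 and 3.97 CPM in wild-type samples. *RNF14*, also a ligase, had 6.74, 11.6 and 18.9 CPM in morphant samples and 3.86, 2.45 and 3.62 CPM in wild-type samples. Morphant replicate 2 lay between the others in 15 of the 16 genes, *arhgap28* being the exception. Exon bases of *LNX1*, *lyrm1* and *rnf169* overlap a gene on the opposite strand, and the counting is not stated to use strand.

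Some other measured levels were also lowest in morphant replicate 1 and highest in morphant replicate 3. *DLX3* and *dlx4b*, given above, were among these. The 8 neural tube marker genes summed to 43.0, 140.4 and 167.4 CPM in morphant samples, against 88.1, 177.2 and 79.6 CPM in wild-type samples. The 6 epidermis and periderm marker genes summed to 702.0, 1093 and 1177 CPM in morphant samples, against 729.8, 1733 and 968.1 CPM in wild-type samples. Wild-type replicate 2 was the highest wild-type sample for both sums, and the 7 members above summed to 439.3 CPM there. The neural crest marker sum had the same order of morphant samples. The OEPD and nephric sum had the opposite order, at 2736, 2421 and 2372 CPM in morphant replicates 1, 2 and 3. So did the paraxial mesoderm sum and the blood and vascular sum. The order of the paraxial mesoderm sum rested on *tbx16*. Without that gene the other 8 summed to 191.2, 209.8 and 219.9 CPM in morphant replicates 1, 2 and 3, lowest in replicate 1 and highest in replicate 3. The notochord, endoderm and lateral plate sums had neither order. The part of cell composition in the spread was not tested.

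**Figure D3:**
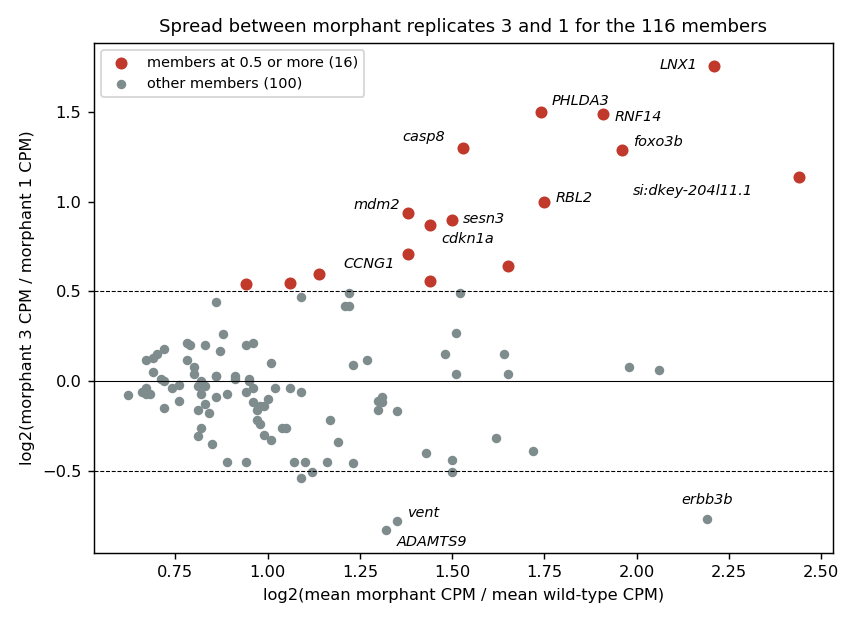
The log2 ratio of morphant replicate 3 to morphant replicate 1 (vertical axis) against the log2 ratio of mean morphant to mean wild-type CPM (horizontal axis) for the 116 members, with dashed lines at 0.5 and -0.5. The 16 members at 0.5 or more are red and the other members grey, and *CCNG1*, *cdkn1a*, *mdm2*, *sesn3*, *foxo3b*, *PHLDA3* and *casp8* lie between 0.71 and 1.5.

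In 6 members (5.17%) the ratio of morphant replicate 3 to morphant replicate 1 was -0.5 or less on the log2 scale, beside 4.92% of all genes. *ADAMTS9*, a matrix metalloprotease, had 68.2, 52.3 and 38.2 CPM in morphant samples, against 24.1, 14.5 and 24.8 CPM in wild-type samples. *vent*, described below, *erbb3b*, *si:dkey-250d21.1*, *palm2akap2* and *PHLDB2* were the others. Replicate 2 was the highest morphant sample in *palm2akap2*, at 49.1, 51.7 and 34.4 CPM in morphant replicates 1, 2 and 3.

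Genes of retinoic acid synthesis and reception formed the next group. *ALDH1A2*, the enzyme that makes retinoic acid from retinal (ENSDARG00000053493, chr7:30055034-30096500), had 134.1, 123.1 and 137.5 CPM in morphant samples, against 51.9, 29.1 and 44.7 CPM in wild-type samples. Its ratio of means was 3.14, and its lowest morphant level was 2.37 times its highest wild-type level. *RDH10*, which supplies retinal from retinol, had 84.2, 85.2 and 80.1 CPM in morphant samples, against 50.3, 51.5 and 55.4 CPM in wild-type samples. *RARG*, a nuclear receptor for retinoic acid, had 116.9, 113.1 and 97.5 CPM in morphant samples, against 61.4, 56.0 and 67.6 CPM in wild-type samples. The members thus cover the oxidation of retinol, that of retinal, and a receptor. Of the 29 other list genes tested with edgeR's quasi-likelihood test, 2, the receptor genes *rarab* and *rxrbb*, were called higher at an adjusted p below 0.1 and 0 lower, beside 4.85% of all 17526 genes tested called higher and 6.05% called lower. With replicate 1, 2 or 3 of both groups left out, 0, 0 and 6 of these 29 were called higher, and over all genes 62, 354 and 2156 were, so the counts per list move with the total.

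A second listed gene carries the symbol *RDH10* and was not a member. It had 47.5, 44.8 and 43.6 CPM in morphant samples and 56.7, 56.3 and 52.0 CPM in wild-type samples, lower in all morphant samples. The symbol table used here gives many zebrafish paralogues under 1 capital symbol, and 26 members carry a symbol that another listed gene also has. Of these other genes, 14 met the count limit, with a median ratio of means of 1.02. In 2 of them every morphant sample was above every wild-type sample, and in 3 every morphant sample was below. Over all 11139 genes that met the count limit these shares were 16.6% and 18.5%, and nothing is read from the 2 and the 3. The second *TLE3* gene, for example, had 91.5, 90.1 and 105.2 CPM in morphant samples and 79.7, 64.3 and 74.5 CPM in wild-type samples, whereas the second *SH3GLB2* gene had 39.9, 36.9 and 42.8 CPM in morphant samples and 43.0, 45.6 and 52.2 CPM in wild-type samples.

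On the Wnt list, the members were an antagonist and an effector. *SFRP1*, a secreted protein that binds Wnt ligands (ENSDARG00000035521, chr5:26888822-26938592), had 105.4, 105.3 and 97.4 CPM in morphant samples, against 44.2, 32.1 and 49.0 CPM in wild-type samples. *LEF1*, the transcription factor through which beta-catenin acts, had 92.5, 84.4 and 88.7 CPM in morphant samples, against 53.6, 39.7 and 44.7 CPM in wild-type samples. *TLE3*, a Groucho co-repressor that binds Lef and Tcf factors, was a member that did not stand on the list. *TLE3* had 181.8, 163.1 and 176.4 CPM in morphant samples, against 113.5, 105.7 and 108.4 CPM in wild-type samples. Of the 32 other Wnt list genes tested, 7 were called higher by edgeR and 1 lower, beside the same 4.85% and 6.05% of all genes. With replicate 1, 2 or 3 left out, 0, 2 and 7 of them were called higher and 0, 0 and 4 lower. Over all 17800, 17677 and 17716 genes tested in these fits, 62, 354 and 2156 were called higher and 123, 655 and 1799 lower. With no replicate block 4 of the 32 were called higher, beside 1087 of all 17526 genes.

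On the Bmp and Tgf-beta list, the members were an extracellular inhibitor, a signal transducer and a pair of target genes. *FST*, follistatin, which binds activins and Bmp proteins, averaged 9.73 ± 0.385 CPM in morphant samples and 5.59 ± 0.365 CPM in wild-type samples (SD, n = 3 each). *SMAD1*, which carries the Bmp signal to the nucleus, had 55.4, 58.3 and 55.3 CPM in morphant samples, against 34.0, 31.7 and 37.2 CPM in wild-type samples. *SMAD2*, its counterpart for Nodal and activin signals, was a member that did not stand on the list. *SMAD2* had 2234, 2300 and 2295 counts in morphant samples, against 1492, 1369 and 1718 counts in wild-type samples, a ratio of mean CPM of 1.65. Their values within each group were close, and the gap between the groups is what the rule requires.

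The target genes *vent* and *ved* encode homeodomain repressors that act ventrally downstream of Bmp. *vent* had 123.8, 95.2 and 72.3 CPM in morphant samples, against 35.4, 29.3 and 49.5 CPM in wild-type samples. *ved* averaged 16.0 ± 2.52 CPM in morphant samples and 9.07 ± 0.311 CPM in wild-type samples (SD, n = 3 each). Exon bases of *ved* are shared with another gene on the same strand, so its reads are less certain. Of the 38 other list genes tested, 6 were called higher by edgeR and 3 lower, beside 4.85% and 6.05% of all genes. With replicate 1, 2 or 3 left out, 0, 3 and 9 of them were called higher and 1, 2 and 8 lower. Over all genes tested in the same fits, 62, 354 and 2156 were called higher and 123, 655 and 1799 lower.

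**Figure D4:**
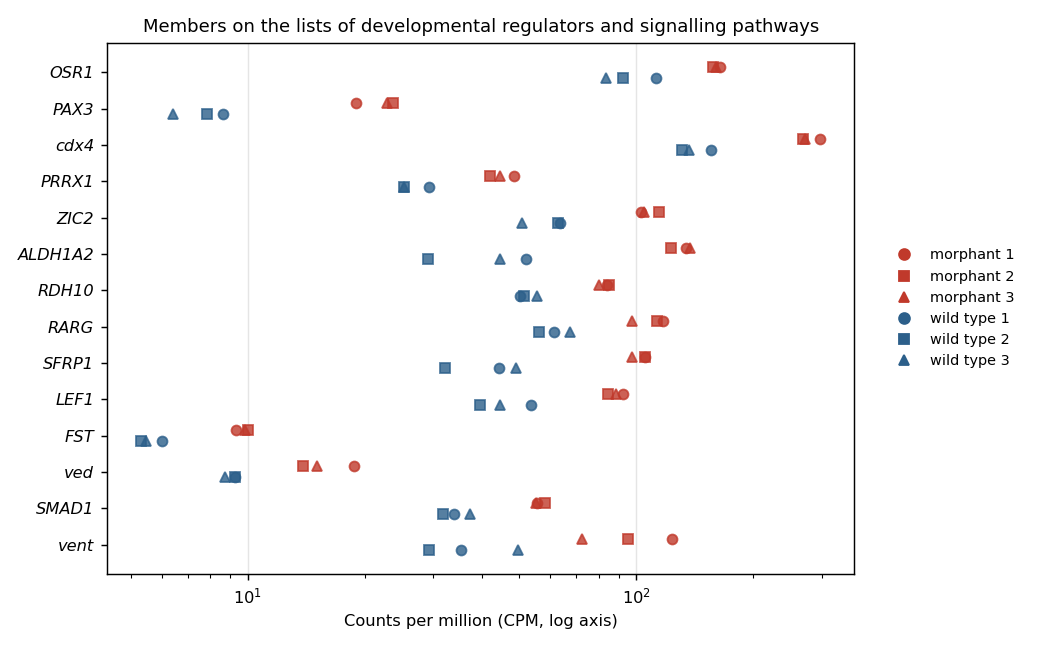
CPM on a log axis in each sample for the 14 members on the lists of developmental regulators and of the retinoic acid, Wnt, and Bmp and Tgf-beta pathways. Red symbols are the 3 morphant samples and blue symbols the 3 wild-type samples, with 1 shape per replicate number. The levels run from *FST* near 10 CPM to *cdx4*, which had 297.9, 268.0 and 271.2 CPM in morphant samples and 155.3, 130.8 and 137.0 CPM in wild-type samples.

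Transcription factors of the mesoderm and the neural plate made up most of the remaining list members. *OSR1*, a zinc finger factor of intermediate and lateral mesoderm needed for kidney formation (ENSDARG00000014091, chr13:32013920-32019993), had 164.0, 157.8 and 160.0 CPM in morphant samples, against 112.4, 92.2 and 83.4 CPM in wild-type samples. It was the only member among the OEPD and nephric markers. *PRRX1*, a homeodomain factor of lateral and head mesenchyme, had 48.3, 42.1 and 44.6 CPM in morphant samples, against 29.3, 25.2 and 25.2 CPM in wild-type samples. *cdx4*, a caudal factor that sets posterior identity in mesoderm and spinal cord, had the highest level of these factors, 279.0 ± 16.4 CPM in morphant samples and 141.0 ± 12.7 CPM in wild-type samples (SD, n = 3 each). The lateral plate marker genes, none of them a member, summed to 302.4, 250.8 and 287.5 CPM in morphant samples, against 240.6, 156.2 and 185.4 CPM in wild-type samples. The 9 paraxial mesoderm marker genes summed to 388.3, 370.1 and 346.7 CPM in morphant samples, against 326.0, 266.7 and 327.9 CPM in wild-type samples. Every morphant sample lay above every wild-type sample in 1 of the 4 lateral plate genes and in 0 of the 9. Of these genes 2 and 7 met the count limit. The share over all 11139 genes was 16.6%, and nothing is read from these counts. Without *tbx16*, a T-box factor, the other 8 summed to 191.2, 209.8 and 219.9 CPM in morphant samples, against 207.4, 187.1 and 199.7 CPM in wild-type samples. The part of cell composition in these members' levels was not tested.

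*PAX3*, a paired domain factor of the dermomyotome, dorsal neural tube and neural crest (ENSDARG00000010192, chr2:47517819-47578737), had 19.0, 23.6 and 22.8 CPM in morphant samples, against 8.64, 7.85 and 6.43 CPM in wild-type samples. *ZIC2*, a zinc finger factor of the dorsal neural tube, had 102.9, 114.7 and 104.8 CPM in morphant samples, against 63.5, 62.9 and 50.7 CPM in wild-type samples. The neural marker sums did not separate the groups in the same way. The neural tube sum, given above, overlapped between the groups, and the 4 neural crest marker genes summed to 11.2, 21.3 and 30.9 CPM in morphant samples, against 24.1, 61.5 and 22.6 CPM in wild-type samples. In every wild-type sample *SOX10* held most of this crest sum, with 13.9, 54.9 and 12.8 CPM, and *FOXD3* had 0 CPM in all samples. The longer neural crest list had 14 genes above the count limit. In 6, *PAX3* included, every morphant sample was above every wild-type sample, and in 3 below, beside 16.6% and 18.5% of all genes. Of its 19 other genes tested, 4 were called higher by edgeR and 4 lower, beside 4.85% and 6.05% of all genes.

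A textbook role was assigned by hand to 92 members, with no such sorting of all genes to set beside it, and 17 of them were transcription factors. Their summed level was 2175, 2097 and 2067 CPM in morphant samples, against 1199, 1007 and 1219 CPM in wild-type samples. *CTCF*, the insulator protein that shapes chromatin loops, held much of this sum, with 948.7, 931.2 and 931.2 CPM in morphant samples and 542.0, 436.5 and 597.7 CPM in wild-type samples. *SREBF1*, the activator of lipid synthesis genes, had 12.6, 13.6 and 14.0 CPM in morphant samples and 4.79, 3.80 and 5.79 CPM in wild-type samples, and was the only member on the cholesterol synthesis list. The vitamin D receptor *VDR*, a nuclear receptor like *RARG*, averaged 7.04 ± 0.979 CPM in morphant samples and 2.61 ± 0.746 CPM in wild-type samples (SD, n = 3 each). The class had a median ratio of means of 1.92.

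A further 9 members were co-regulators or chromatin proteins, with a median ratio of 1.95. *dido1*, a reader of histone methylation, had 701.3, 720.8 and 600.3 CPM in morphant samples, against 361.2, 293.2 and 376.7 CPM in wild-type samples. *DNMT3A*, a methyltransferase that sets new DNA methylation, had 6.36, 6.87 and 7.63 CPM in morphant samples, against 3.46, 3.87 and 4.00 CPM in wild-type samples. *SMARCC2*, a subunit of SWI/SNF remodelling complexes, averaged 9.14 ± 0.212 CPM in morphant samples and 4.70 ± 0.342 CPM in wild-type samples (SD, n = 3 each). In these examples the spread within each group was smaller than the gap between the groups, a gap that the rule requires. *RBL2*, with the largest ratio of means of the class, 3.37, spread more widely. It had 10.4, 16.6 and 20.7 CPM in morphant samples and 4.89, 4.31 and 4.92 CPM in wild-type samples.

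The pair of members with the highest CPM encode proteins that bind RNA. *ddx3xb*, a DEAD-box RNA helicase of translation initiation (ENSDARG00000005774, chr6:59900573-59918191), had 1816, 1565 and 1652 CPM in morphant samples, against 908.1, 761.6 and 860.5 CPM in wild-type samples. *FUBP1*, which binds single-stranded nucleic acid and controls transcription and splicing (ENSDARG00000029248, chr2:8851288-8865099), had 1550, 1463 and 1465 CPM in morphant samples, against 1015, 879.9 and 1015 CPM in wild-type samples. *FUBP1* had the smallest ratio of means of all members, 1.54. The 7 members of this class, which also held *MBNL1*, *PUM2* and *PCIF1*, had a median ratio of 1.85, and their levels carried much of the summed CPM of the 116.

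Members with other roles were spread over many processes. In vesicle traffic, *TMED9*, a cargo receptor of the early secretory pathway, had 165.0, 174.8 and 180.2 CPM in morphant samples, against 111.3, 102.5 and 108.6 CPM in wild-type samples. The sorting nexin *SNX1*, which acts in retrieval from endosomes, had 112.5, 120.5 and 128.9 CPM in morphant samples, against 61.6, 60.0 and 66.4 CPM in wild-type samples. *CHAC1*, an enzyme that degrades glutathione and a target of the unfolded protein response, had 81.4, 84.9 and 90.3 CPM in morphant samples, against 55.5, 52.2 and 50.5 CPM in wild-type samples. *CHAC1* was the only member of the 40 heat shock and unfolded protein genes above the count limit, and of the 42 other genes tested on that list 2 were called higher and 9 lower by edgeR, beside 4.85% and 6.05% of all genes. Signalling regulators made up 9 members, with a median ratio of 2.08, and metabolic enzymes 10, with a median ratio of 1.84.

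Several members belonged to the same small families. *TANC1* and *TANC2* encode scaffold proteins of synapses. *TANC1* had 31.3, 30.9 and 28.8 CPM in morphant samples, against 11.8, 9.35 and 15.6 CPM in wild-type samples. *TANC2* had 77.7, 63.6 and 69.4 CPM in morphant samples, against 38.2, 33.8 and 35.3 CPM in wild-type samples. *LNX1* and *lnx2b* are related ligases, and *lnx2b* averaged 20.6 ± 0.797 CPM in morphant samples and 10.2 ± 0.737 CPM in wild-type samples (SD, n = 3 each). The pairs *SMAD1* and *SMAD2*, *vent* and *ved*, and *ADAMTS9* and *ADAMTS18* were given above. These families, the role classes and the examples within them were picked after the values had been seen.

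Along the chromosomes, 10 members formed 5 pairs of neighbours with no other gene above the count limit between them. The 281 genes lower by the same gap formed 17 such pairs, and nothing is read from these counts. The closest pairs were *ppargc1b*, a co-activator of mitochondrial genes, and the phosphodiesterase gene *PDE6B*, 3819 bp apart on chromosome 14, and *si:ch1073-263o8.2* and *si:dkey-229d11.5*, 9181 bp apart on chromosome 21. *lnx2b* (chr14:32578170-32605615) and *cdx4* (chr14:32621404-32624855) lay 15789 bp apart on opposite strands. In the pairs *rbms1b* and *TANC1* on chromosome 9, and *ADAMTS18* and ENSDARG00000037478 on chromosome 7, the genes were 246128 and 581545 bp apart. Chromosome 10 held 9 members, 2.22% of its genes above the count limit, and chromosomes 8 and 12 held 1 member each, 0.210% and 0.259%, beside 1.04% of all genes. In all, 13 members (11.2%) shared exon bases with another gene, beside 14.1% of all genes.

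The limit of the rule runs through a continuous range of values. Just inside were *PUM2*, a repressor of messenger RNA translation, at a ratio of 1.404, the DNA glycosylase gene *NTHL1* at 1.403, and the phosphatase subunit gene *PPP2R3A* at 1.4. Just outside were the Fgf antagonist gene *IL17RD* at 1.399, *TRAK2*, which links mitochondria to motors, at 1.397, and the Wnt receptor gene *FZD9* at 1.394. *IL17RD* had 343.1, 285.8 and 286.3 CPM in morphant samples and 204.3, 186.6 and 201.7 CPM in wild-type samples, and *PUM2* had 85.0, 78.4 and 62.1 CPM in morphant samples and 39.0, 38.5 and 44.2 CPM in wild-type samples. At a ratio of 2 or more 14 genes were left, and at 1.2 or more there were 365.

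In the edgeR fit over all 17526 genes tested, 114 of the 116 members were called higher at an adjusted p below 0.1, beside 4.85% of all genes tested and 6.71% of the 11139 that met the count limit. The rule used the same contrast, so nothing is read from this count. The members not called were *SNX21* and *rbms1b*, with ratios of means of 1.59 each. The median log2 fold change of the members in this fit was 1.01. Without replicate 1 of both groups, 44 members were called, and without replicate 2 or 3, 103 and 114 were. The number of genes that met the rule became 234, 164 and 510 with replicate 1, 2 or 3 left out, when fewer samples had to be separated. It became 226 without morphant replicate 3 alone and 290 without wild-type replicate 3 alone. The cause of the differences between these omissions was not tested.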

How the data were processed

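RNAseq was performed on *pax8*:DsRed-positive cells of 3 *dlx3b/4b* morphant and 3 wild-type samples, which the study calls biological replicates. The deposited values are raw read counts per Ensembl gene, which the authors made with featureCounts from uniquely aligned reads, without normalization. The submitters' processing notes name featureCounts 1.5.2 and GRCz10, and the study's methods GSNAP 2018-07-04, GRCz11, Ensembl 92 and featureCounts 1.6.2. The sources also differ on the library preparation: the labels describe a strand-specific poly(A) kit and the methods a full-length protocol that keeps no strand. Symbols came from a table of Ensembl names that matched 26433 of 32266 identifiers, printed as given there, and symbols in capitals do not tell paralogues apart. The 92 spike-in rows held 0 counts.

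CPM used column sums of gene counts. The edgeR 4.0.16 fit in R 4.3.3 used TMM, filterByExpr, the replicate number as a block and the quasi-likelihood test, with Benjamini-Hochberg adjustment and a threshold of 0.1. DESeq2 1.42.0 was an alternative. The fits were tested on simulated counts and the rule on a made table with known members, and plots were drawn with matplotlib 3.10.9. Floors of 3 counts cover counting error only. A further gene list is not reported here, and members on it are given as single genes. The members, the gene lists and the tests were chosen with earlier results of these data known. Genes were named as the 15 largest gaps, the 10 highest mean levels, up to 5 members per list, 3 on either side of the ratio limit, neighbouring pairs and the targets. Members named besides these, *mdm2* and *casp8* included, and the non-members *PAX8* and *tbx16* were chosen after their values had been seen. Alternatives were other scalings, ratio and count limits, fits, thresholds and samples left out.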

Additional observations from a re-analysis of the deposited data

How the results depend on the processing

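The number of genes that met the rule was 130 with TMM library sizes, 139 with DESeq2 size factors and 112 without mitochondrial counts, and these kept 114, 115 and 112 of the 116 members. It was 365 at a ratio of 1.2, 14 at a ratio of 2, 142 and 90 at mean counts of 50 and 200, and 135 to 510 with samples left out. Genes called higher by edgeR numbered 850, against 1331 with no filter on low counts, 1463 with DESeq2 and no replicate block, 416 at an adjusted p below 0.05, and 62 to 2156 with replicates left out. Members called ranged from 44 to 114 over the same omissions, and their median log2 fold change from 0.96 to 1.07. Of 336 log2 ratios of named genes under other scalings (added after the data had been seen) or without a replicate number, 334 kept their sign and the size within replicate spread. The exceptions were *DLX3* and *dlx4b*, at -0.53 and -1.26 without replicate 3, with ranges of -0.53 to 1.53 and -1.26 to 1.47 over the replicates left out. All other named genes were members or lay just outside the ratio limit. Their sign was thus fixed in advance when a replicate was left out, and nothing is read from the 334. Scalings moved the median gene by at most 0.022 on the log2 scale. The cause of these changes was not tested, and some settings also differed in the number of samples or genes compared.

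The edgeR fit held the replicate number as a block because the methods of the study name a clutch term, but the samples did not show that the numbers pair them. Deviations from the group means correlated at 0.16, 0.05 and -0.14 between same-numbered samples, and sample 3 of the morphants correlated best with wild-type sample 2, at 0.22. With no replicate block, 1087 genes and 115 members were called higher, the member not called being *pde11al*, and the median log2 fold change was 1.00. DESeq2 with the block called 970 genes and 113 members. That gene rests on 2 counts in wild-type replicate 1.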
